A study of Arabidopsis thaliana with 12 samples.

Results

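The class II TCP relatives of BRC1 are the 10 Arabidopsis thaliana genes that share a subclass of the TCP family with the branching factor BRC1 (TCP18, AT3G18550). They were taken by gene identifier: TCP1 (AT1G67260), TCP2 (AT4G18390), TCP3 (AT1G53230), TCP4 (AT3G15030), TCP5 (AT5G60970), TCP10 (AT2G31070), TCP12 or BRC2 (AT1G68800), TCP13 (AT3G02150), TCP17 (AT5G08070) and TCP24 (AT1G30210). The rule used no measured values, but the set was chosen with earlier results of these data known. The RNA tables hold 33147 annotated loci, of which 22028 genes were listed with signal in at least 1 library and 21038 were tested. Of the 10 relatives, 9 were listed somewhere and 8 were tested.

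RNA was sequenced from seedlings in 3 libraries of GFP:BRC1ind, a line in which estradiol induces a GFP fusion of BRC1, and in 3 libraries of the mutant brc1-2. Both genotypes were 10 days old and carry the label of 10 uM estradiol, with harvest 5 hours after treatment, so the contrast combines induction with the genotype of the control. The labels name neither the promoter of the fusion nor the background or number of lines of GFP:BRC1ind, no group is an uninduced GFP:BRC1ind, and nothing says that replicates came from separate cultures, so p-values measure the spread between these samples, which may be technical. In the same line GFP-BRC1 was precipitated with anti-GFP, and a peak list shared by 2 of the 3 ChIP libraries was used.

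TCP proteins are plant transcription factors that bind GC-rich DNA through a basic helix-loop-helix-like TCP domain. Class II holds the CYC/TB1 clade, which in Arabidopsis consists of TCP1, TCP12 and BRC1 and is known for the control of axillary buds and flower form. It also holds the CIN clade, which slows cell proliferation at the leaf margin and drives leaf maturation. Transcripts of the CIN genes TCP2, TCP3, TCP4, TCP10 and TCP24 are cut by the microRNA miR319, and TCP5, TCP13 and TCP17 lack that site.

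TCP3 rose in the induced line by 1.6 in ratio of means, and it was the only relative past the threshold. It also had a GFP-BRC1 peak midpoint 160 bp from its locus. The locus of TCP3 overlaps AT1G53233, which rose alike, and fragments of these 2 genes cannot be told apart here. The other 7 tested genes did not pass the threshold in the fit reported, though TCP5 passed under some other settings. The closest kin of BRC1, TCP1 and TCP12, were not listed in any induced library. TCP13 had a peak nearer than that of TCP3 and near-equal RNA in both groups.

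The libraries held between 33175413 and 53385442 fragments, as derived from the deposited confidence bounds, and the smallest assembled piece in each held 9.59 fragments. A gene that is not listed had no assembled piece, which does not bound its total fragments, and it is not shown to be silent. BRC1 itself had FPKM values (fragments per kilobase of assembled transcript, scaled to library size) of 3370, 3421 and 3625 in the induced libraries, against 1.34, 1.66 and 2.2 in brc1-2. Leaf markers RBCS1A and CAB1 were abundant in every library, with summed FPKM from 18295 to 26788, and 0 of the 2 changed. Root markers EXP7 and PHT1;1 both fell (limma adjusted p = 0.00433 and 0.00246). Their summed FPKM ran from 26.0 to 36.1 in the induced libraries and from 95.9 to 136 in brc1-2. The phloem marker SUC2 (47.5 to 55.4 against 55.7 to 74.6) and the meristem marker STM (1.09 to 2.15 against 1.4 to 2.69) did not pass the test, and the seed marker CRA1 was not listed in 4 of the 6 libraries. With 2 genes in bulk seedlings, fewer root cells, less root RNA per cell and a change of these genes alone cannot be told apart. The part of tissue makeup in the TCP values was not tested.

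The CYC/TB1 relatives were near or below the limit of listing. TCP12 (chromosome 1, 25847066 to 25848540 in the loci of the tables), which represses branching together with BRC1, was listed in brc1-2 library 1 alone, with an FPKM of 1.37 from 12 fragments. It was not listed in the other 2 brc1-2 libraries or in any of the 3 induced ones. The induced libraries held between 126776 and 209197 BRC1 fragments, and TCP12 stayed below the limit of listing in all 3. TCP1 (chromosome 1, 25167462 to 25169307), which acts in brassinosteroid synthesis, was not listed in any of the 6 libraries. Neither gene passed the filter, and no fold change is given.

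In the induced libraries the BRC1 transcript was 18.2, 20.6 and 20.4 times the summed FPKM of all 10 relatives. In brc1-2 that ratio was 0.00883, 0.0107 and 0.0144. BRC1 thus made up 95.2% ± 0.325 of the class II TCP FPKM in the induced line and 1.12% ± 0.28 in brc1-2 (SD, n = 3 each). The relatives themselves summed to 185, 166 and 177 FPKM in the induced libraries and to 152, 156 and 152 in brc1-2. The sums of the groups did not overlap.

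Among the miR319-targeted CIN genes, TCP3, which promotes leaf differentiation, had FPKM values of 24.0, 23.4 and 24.7 in the induced libraries, against 13.9, 15.1 and 16.1 in brc1-2. The lowest induced value was 1.45 times the highest brc1-2 value. Group means were 24.1 ± 0.656 and 15.0 ± 1.14 (SD, n = 3 each), from at least 818 fragments in each library. The log2 change of FPKM + 1 was 0.65 (SE 0.07), with a 95% interval of 1.38-fold to 1.77-fold and a limma adjusted p of 0.00414. Leaving out any 1 library gave log2 changes between 0.59 and 0.69, with limma adjusted p-values from 0.00698 to 0.0258. Of all tested genes, 94.1% had a smaller log2 change.

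The locus of TCP3 (chromosome 1, 19849788 to 19851725) shares 1695 bp with AT1G53233, annotated as a long non-coding RNA in the RefSeq gene table, which is 80.8% of that second locus. AT1G53233 had FPKM values of 25.0, 20.6 and 22.1 in the induced libraries, against 13.3, 15.4 and 14.7 in brc1-2. Its log2 change was 0.60 (SE 0.10, limma adjusted p = 0.0111). The sources do not state that counting used strand, so fragments of TCP3 and AT1G53233 cannot be told apart here. With both summed as 1 gene, an alternative added after seeing the data, the log2 change was 0.64 (limma adjusted p = 0.00479). That value follows from the similar changes of the 2 loci and does not show which of them rose.

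**Figure D1:**
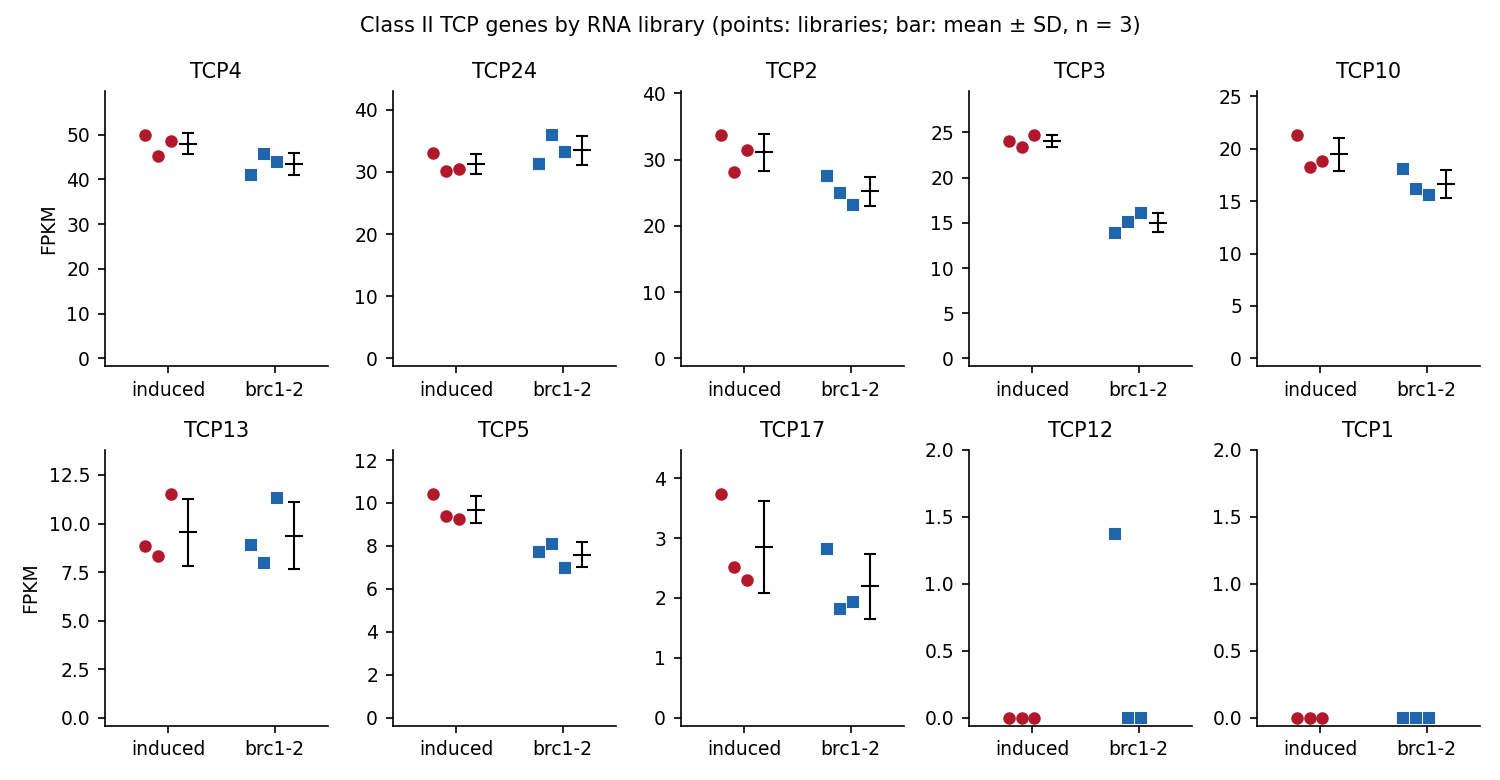
FPKM of each of the 10 class II TCP genes in each RNA library, with red circles for the 3 induced and blue squares for the 3 brc1-2 libraries; black bars give the mean ± SD, left out for TCP12 and TCP1, and each vertical axis has its own scale. The groups stand clear of each other at TCP3 (23.4 or more against 16.1 or less), while those of TCP4, TCP24, TCP13 and TCP17 overlap.

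TCP2 and TCP10 had higher values in every induced library than in any brc1-2 library, by narrow margins, and neither passed the threshold. TCP2 had 33.7, 28.1 and 31.5 FPKM in the induced libraries, against 27.5, 25.0 and 23.1 in brc1-2. Its interval ran from 1.04-fold to 1.44-fold (log2 change 0.29, SE 0.10, limma adjusted p = 0.0994). TCP10, the gene next to TCP3 in level, had 21.3, 18.3 and 18.8 against 18.1, 16.2 and 15.6. Its interval ran from 0.999-fold to 1.35-fold (log2 change 0.21, SE 0.09, limma adjusted p = 0.165).

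TCP4, the most abundant relative and a regulator of leaf maturation, had 49.9, 45.3 and 48.7 FPKM in the induced libraries, against 40.9, 45.6 and 43.9 in brc1-2. The groups overlapped, since induced library 2 lay just below brc1-2 library 2. The interval was 0.978-fold to 1.24-fold (limma adjusted p = 0.24). TCP24 was the one tested relative with a lower mean in the induced line, with 33.1, 30.2 and 30.5 against 31.2, 35.9 and 33.2. Its groups also overlapped, with an interval of 0.825-fold to 1.07-fold (limma adjusted p = 0.463).

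The CIN genes without a miR319 site were lower in level, and none of the 3 passed the threshold. TCP5, which acts in petal growth and in the response to warmth, had 10.4, 9.41 and 9.25 FPKM in the induced libraries, against 7.7, 8.11 and 6.95 in brc1-2. The groups did not overlap, and the interval was 1.07-fold to 1.45-fold (log2 change 0.32, SE 0.09, limma adjusted p = 0.0633). TCP5 passed the threshold under another scaling or count model, with a limma adjusted p of 0.0311 after median scaling, 0.0236 after quantile normalization and 0.0499 by voom on derived fragments. All 3 settings gave about the same log2 change, from 0.33 to 0.36.

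TCP13 had 8.82, 8.32 and 11.5 FPKM in the induced libraries, against 8.87, 7.96 and 11.3 in brc1-2. In both groups the third library was the high one, and the group means of 9.56 ± 1.73 and 9.37 ± 1.71 differed by less than their SD. The interval was wide, from 0.77-fold to 1.35-fold (limma adjusted p = 0.931). TCP17 was the scarcest tested relative, with 3.73, 2.52 and 2.3 against 2.82, 1.82 and 1.94, from 30 to 76 fragments. Its interval of 0.834-fold to 1.73-fold includes a change as large as that of TCP3 (limma adjusted p = 0.455).

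**Figure D2:**
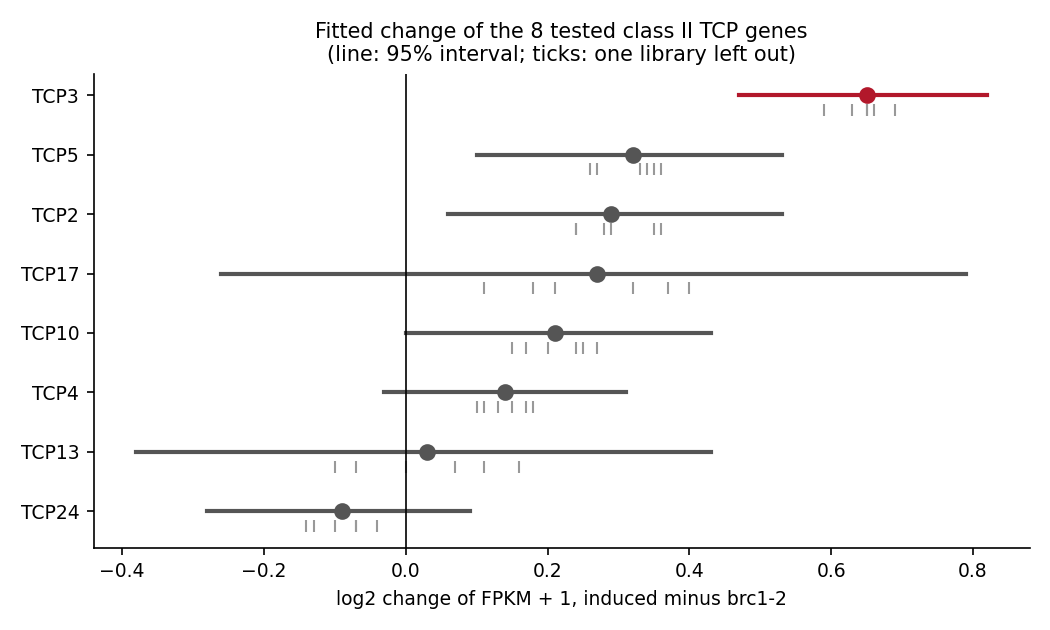
Fitted log2 change of FPKM + 1 between the induced line and brc1-2 for the 8 tested genes, with the 95% interval as a line and grey ticks for the 6 fits with one library left out; red marks the gene past the limma adjusted p of 0.05. TCP3 lies at 0.65, the other 7 lie between -0.09 and 0.32, and the ticks of TCP13 fall on both sides of 0.

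Counted together, 1 of the 8 tested relatives was higher by limma (12.5%), where 7.37% of all 21038 tested genes were. None was lower by limma, where 8.86% of all genes were, and 16.2% were called in either direction. At an unadjusted p under 0.05, 3 relatives were higher (TCP2, TCP3 and TCP5) and 0 lower. Of all 21038 tested genes, 3153 were higher and 3304 lower at that p. By voom 2 relatives were higher and 0 lower, where 1942 of all tested genes were higher and 2508 lower. With counts this small, the share of relatives called at the adjusted limma threshold is near the share of all genes. The all-gene count depended on the libraries: 1550 genes were higher with all 6, but 716, 809 and 851 when induced library 1, 2 or 3 was left out and 983 when brc1-2 library 2 was, while TCP3 kept its call in each. The fitted change was above 0 in 7 of 8, against 55.6% of all tested genes, and the median log2 change was 0.24 against 0.04. The groups did not overlap in 4 of the 8, all 4 higher in the induced line. Over all tested genes the groups did not overlap in 38.9%, and in 20.8% with higher values in the induced line.

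**Figure D3:**
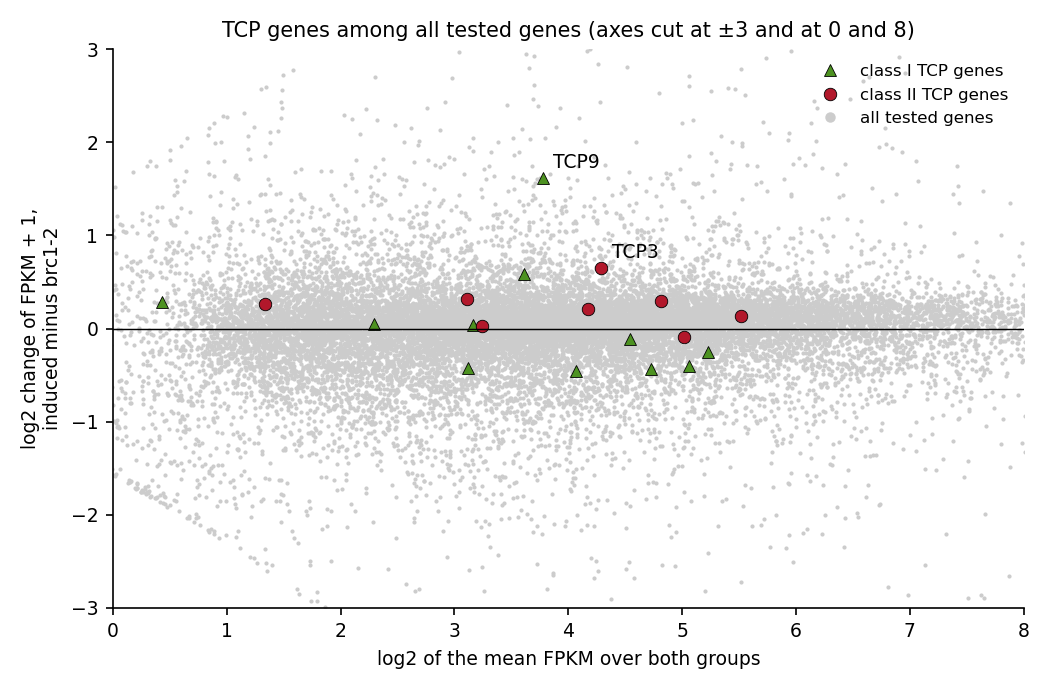
Log2 change of FPKM + 1 (induced minus brc1-2) against the log2 of the mean FPKM over both groups, with tested genes in grey, the 8 class II TCP genes as red circles and 11 of the 12 tested class I TCP genes as green triangles; 930 genes, TCP6 among them, lie outside the axes. TCP3 (0.65) is the highest of the class II genes, and TCP9 (1.61) the highest of the class I genes shown.

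The order of the levels in brc1-2 was TCP4 (43.5 ± 2.39 FPKM), TCP24 (33.4 ± 2.37), TCP2 (25.2 ± 2.18), TCP10 (16.6 ± 1.26), TCP3 (15.0 ± 1.14), TCP13 (9.37 ± 1.71), TCP5 (7.59 ± 0.587) and TCP17 (2.19 ± 0.549; SD, n = 3 each). Neighbours whose ranges overlapped there were TCP10 with TCP3 and TCP13 with TCP5. In the induced line TCP3 (24.1 ± 0.656) stood above TCP10 (19.5 ± 1.6) in all 3 libraries with no overlap. TCP24 (31.3 ± 1.59) and TCP2 (31.1 ± 2.81) overlapped in the induced line, where they had been apart in brc1-2. The share of TCP3 in the summed FPKM of the relatives was 13.7% ± 0.612 in the induced line and 9.81% ± 0.757 in brc1-2. That of TCP24 was 17.8% ± 0.541 and 21.8% ± 1.28. Levels and shares of TCP3 may hold fragments of the overlapping AT1G53233.

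Ratios between relatives within a library do not depend on how libraries are scaled to each other. For 5 pairs chosen after their values were seen, an exact two-sided permutation test of 3 against 3 libraries cannot give a p below 0.1. The TCP3/TCP10 ratio was 1.13, 1.28 and 1.31 in the induced libraries, against 0.767, 0.931 and 1.03 in brc1-2. The TCP3/TCP4 ratio was 0.482, 0.516 and 0.508 against 0.339, 0.332 and 0.368. Both ratios were higher in every induced library than in any brc1-2 library, and both may hold fragments of AT1G53233 in the value of TCP3. Since TCP3 was already called, both largely repeat its rise and are no separate support for it.

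The TCP2/TCP24 ratio was 1.02, 0.93 and 1.03 in the induced libraries, against 0.882, 0.697 and 0.697 in brc1-2, again with no overlap. Each of these 3 ratios had the smallest possible exact permutation p of 0.1 (0.167 adjusted over the 5 pairs). How often the ratios of other gene pairs do not overlap was not computed, so these 3 are given as values only. The TCP5/TCP13 and TCP5/TCP17 ratios overlapped between groups, with exact permutation p-values of 0.3 and 1.0.

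**Figure D4:**
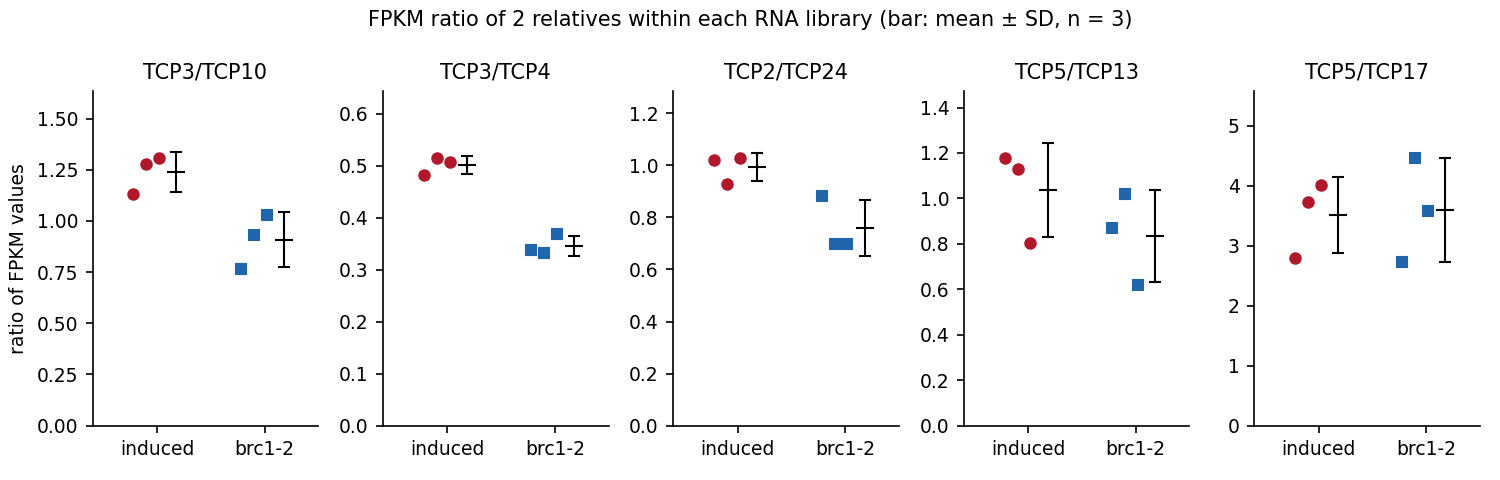
Ratio of the FPKM of a pair of class II TCP genes within each RNA library, with red circles for the 3 induced and blue squares for the 3 brc1-2 libraries, black bars for the mean ± SD, and axes from 0. The induced libraries lie above the brc1-2 libraries in the first 3 panels (TCP3/TCP10, TCP3/TCP4 and TCP2/TCP24), and the groups overlap in the last 2 (TCP5/TCP13 and TCP5/TCP17).

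Binding was read from 4227 peaks of GFP-BRC1, with a median width of 398 bp, which carry no height or score. A midpoint lay within 1000 bp of the loci of 2 of the 10 relatives, TCP3 and TCP13, where 12.0% of 32883 annotated loci had one. Within 3000 bp there were 3 of 10, with TCP2 added, against 21.4% of annotated loci. The counts of 2 and 3 genes are near those shares.

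The peak at TCP3 lies at 19849402 to 19849853 on chromosome 1, is 452 bp wide and reaches into the low-coordinate end of the locus. TCP3 was the nearest locus to its midpoint, and AT1G53233 also lay within 1000 bp of that midpoint. The peak at TCP13 lies at 390812 to 391098 on chromosome 3, is 287 bp wide and also reaches into the low-coordinate end of its locus (391057 to 392758), with the midpoint 102 bp outside. Of all peaks, 65.2% were narrower than the peak of TCP3 and 11.6% narrower than that of TCP13. The tables give no strand, so whether these ends are promoters was not tested.

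TCP2 (chromosome 4, 10162953 to 10165562) had a peak on either side. The one at 10167124 to 10167594 had its midpoint 1797 bp away and TCP2 as its nearest locus. The one at 10160102 to 10160342 had its midpoint 2731 bp away and lay nearer to AT4G18380, at 474 bp. In expression AT4G18380 had 10.1, 7.84 and 8.59 FPKM in the induced libraries, against 13.8, 12.1 and 10.1 in brc1-2 (limma adjusted p = 0.114).

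For the other 7 relatives the nearest midpoint was between 5401 bp (TCP12) and 56226 bp (TCP1) away. The peak nearest to TCP12 lay 13 bp from CLE12 (AT1G68795), a gene of the CLE peptide family. TCP4, TCP10, TCP24, TCP5 and TCP17 had their nearest midpoints at 16454, 26386, 21378, 40064 and 23353 bp. The BRC1 locus had none nearer than 5695 bp. Of the 2 relatives with a peak within 1000 bp, TCP3 rose and TCP13 did not pass the test.

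**Figure D5:**
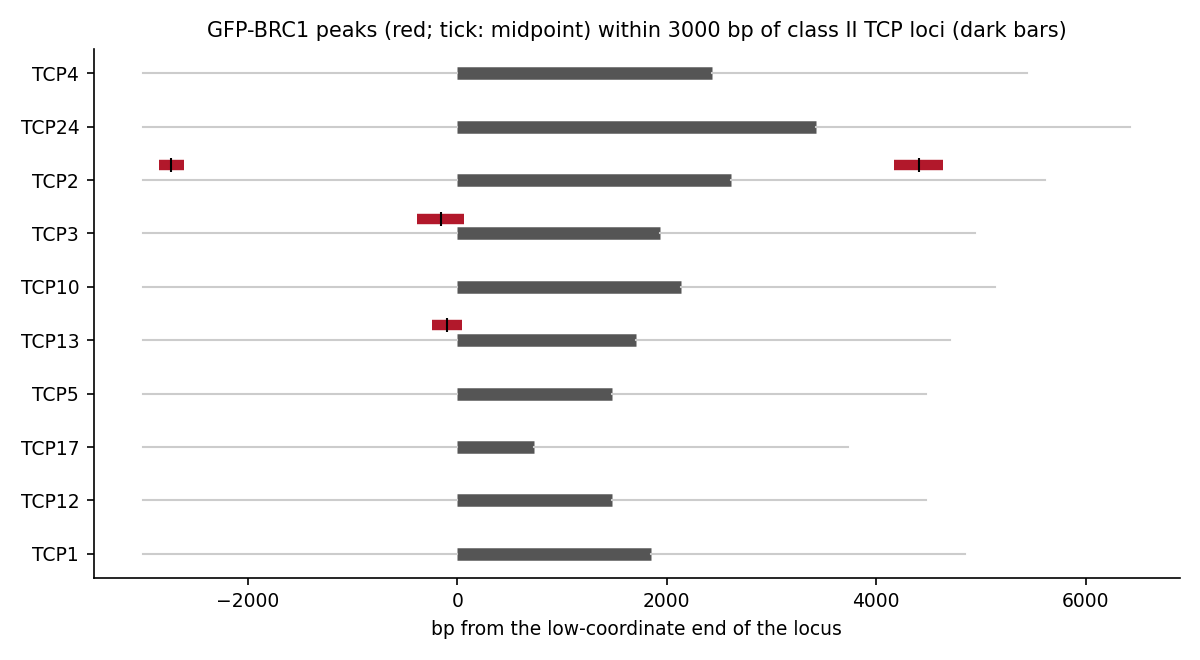
Loci of the 10 class II TCP genes as dark bars, drawn to scale in bp from their low-coordinate end with 3000 bp on either side, and GFP-BRC1 peaks whose midpoint (black tick) falls in that window in red. TCP3 and TCP13 each have a peak over the low-coordinate end, with midpoints 160 and 102 bp outside the locus, TCP2 has a distant one on either side, and the other 7 have none.

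Few transcripts of factors that act on class II TCP proteins could be tested, and none of those passed. The TIE proteins bind TCP factors and recruit the corepressor TOPLESS (TPL). Of a list of the 4 TIE genes and TPL, 4 were tested and 0 passed the threshold in limma, with 0 at an unadjusted p under 0.05 and 0 by voom. Of all 21038 tested genes, 16.2% passed in limma, 6457 had an unadjusted p under 0.05 and 4450 passed by voom. With 4 genes tested, a count of 0 is not read as a result about them. TPL had 43.8, 35.7 and 40.4 FPKM in the induced libraries, against 42.5, 43.6 and 47.3 in brc1-2. TIE4 (AT2G34010) had 3.8, 3.5 and 4.41 against 2.94, 3.32 and 3.6, TIE1 and TIE2 had at most 3.47 in any library, and TIE3 was not listed. Peak midpoints lay within 1000 bp of TIE1 and TIE4, 2 of the 5 genes, against 12.0% of annotated loci. The 3 MIR319 precursors were not listed in any library, and mature miR319 was not measured.

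Of 12 genes reported in the literature as downstream of class II TCP factors, 11 were tested, of which 1 rose and 3 fell (36.4% called, where 16.2% of all tested genes were). This list was chosen with earlier results of these data known. DWF4 (AT3G50660), a brassinosteroid synthesis enzyme tied to TCP1, had 34.2, 34.5 and 40.1 FPKM in the induced libraries, against 25.8, 22.5 and 26.8 in brc1-2. Its log2 change was 0.52 (SE 0.10, limma adjusted p = 0.0197). HAT2 (AT5G47370), an auxin-induced homeodomain factor, had 15.3, 20.4 and 18.7 against 35.9, 26.6 and 29.2 (log2 change -0.72, limma adjusted p = 0.0252). YUC5 (AT5G43890), an auxin synthesis enzyme, had 1.75, 1.45 and 1.93 against 3.04, 3.96 and 4.09 (log2 change -0.79, limma adjusted p = 0.027).

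SAUR65 (AT1G29460), a small auxin-induced gene, had 1.74, 1.65 and 1.89 FPKM in the induced libraries, against 7.77, 3.38 and 4.6 in brc1-2 (log2 change -1.12, limma adjusted p = 0.0394). The groups did not overlap in these 4 genes, which follows largely from their passing the test. Of the 11 tested downstream genes, the groups did not overlap in 7, with 2 higher in the induced line. Over all tested genes those shares were 38.9% and 20.8%. The calls changed when a library was left out. Of the TIE, TPL and downstream genes together, 4 passed with all libraries, but 0 did without induced library 1 or without induced library 3, 1 without induced library 2 or brc1-2 library 3, and 2 without brc1-2 library 1 or 2. With the replicate number as a block, 1 passed. LOX2 (AT3G45140), a lipoxygenase of jasmonate synthesis known as a target of TCP4, had 21.4, 39.2 and 45.5 against 54.5, 52.8 and 105 and did not pass the test (limma adjusted p = 0.142). CUC1 failed the filter, with 2.31, 2.32 and 0.572 FPKM in the induced libraries, from 10 to 12 fragments, and no listing in brc1-2. CUC2 had 1.13, 0 and 0 against 3.02, 3.47 and 0, and CUC3 had 3.56, 1.05 and 1.13 against 1.01, 0 and 0. CUC2 and CUC3 did not pass the test (limma adjusted p = 0.367 and 0.186), and all these values are near the limit of listing.

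Peak midpoints lay within 1000 bp of 6 of these 12 genes, AS1, IAA3, ARR16, KRP1, HAT2 and DWF4, against 12.0% of annotated loci and 16.3% of tested genes with a locus. DWF4 had a midpoint inside its locus and others 680 and 2206 bp away. HAT2, which fell, had one 166 bp away. YUC5 and SAUR65 had none within 3000 bp.

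The class I TCP genes form the other class of the family. Of 13 genes 12 were tested and 5 passed the threshold, which is 41.7%, where 16.2% of all tested genes did. The 5 include TCP6, which entered the test only through the group where it is high. That share is therefore not read as a result about the class. This list, too, was chosen with earlier results of these data known. TCP9 (AT2G45680) had 19.4, 21.9 and 22.1 FPKM in the induced libraries, against 5.69, 5.96 and 7.1 in brc1-2. Its log2 change was 1.61 (limma adjusted p = 0.000775), and it passed in each of the 16 alternatives. The locus of AT2G45685 overlaps that of TCP9. The sources do not state that counting used strand, so the values of TCP9 may hold fragments of AT2G45685. A fit of both as 1 gene was not run. TCP20 rose, and TCP22 and TCP23 fell, with log2 changes of 0.59, -0.45 and -0.43. Each of these 3 lost its call without induced library 1, with limma adjusted p-values of 0.0532, 0.0509 and 0.0816. TCP20 also lost it without brc1-2 library 1 (limma adjusted p = 0.0512), induced library 2 (0.0603) or induced library 3 (0.0505). TCP23 also lost it without induced library 2 (limma adjusted p = 0.0741) or 3 (0.0845), and without brc1-2 library 1 (0.058) or 3 (0.0524). With the replicate number as a block TCP23 lost it as well (limma adjusted p = 0.0501). The fifth call, TCP6 (AT5G41030), is not read as a rise. TCP6 had 2.05, 1.23 and 1.13 FPKM in the induced libraries, from 10 to 17 fragments, was not listed in brc1-2, and so entered the test only through the group where it is high. Its call was lost without any 1 brc1-2 library (limma adjusted p from 0.097 to 0.104) and with the block (0.12). Without 1 library, the number of class I genes past the threshold was 1 with induced library 1 left out, 2 with induced library 2, induced library 3 or brc1-2 library 1 left out, and 4 or 5 for the others.

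Peak midpoints lay within 1000 bp of 4 of 13 class I loci, against 2 of 10 in class II, 12.0% of annotated loci and 16.3% of tested genes with a locus. TCP9 had one 41 bp from its locus and another at 113 bp, which lies inside AT2G45685. Whether the classes differ was not tested.

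The genes closest in pattern to TCP4, the relative with the highest mean, were PLDGAMMA3 (AT4G11840), AT5G38840 and ACT7 (AT5G09810). Their root mean square difference from TCP4 in centred log2(FPKM + 1) over the 6 libraries was 0.0173, 0.0219 and 0.0242, where the median tested gene had 0.201. ACT7, a vegetative actin, had between 412 and 477 FPKM. TCP4 differs little between libraries, and these genes also differ little and vary nearly alike from library to library. They were picked as the closest of all tested genes, so the likeness is not read as a result.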

How the data were processed

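Cufflinks tables with FPKM and its confidence bounds, and a list of peak positions without scores, were deposited by the authors, per the file headers. The submitters' processing notes name TopHat, Bowtie, Cuffdiff, Bowtie2, MACS2 and TAIR10 without roles, and versions are not given in the sources used here. Signal lies on assembled pieces on transcript contigs. The FPKM of a gene's pieces was summed, and a gene with no piece was taken as 0. Fragment numbers were derived from how wide the deposited bounds are.

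A gene was tested where 3 or more of the 6 RNA libraries reached an FPKM of 1. Values were fitted as log2(FPKM + 1) with limma 3.58.1 (eBayes with trend) in R 4.3.3, all 6 libraries together, without covariates. P-values were adjusted by Benjamini and Hochberg over all 21038 tested genes, with a threshold of 0.05. Fold changes and their intervals refer to FPKM + 1, so that changes of low genes are understated. The fit was tested on simulated data. Python 3.11.15 was used.

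A peak counted for a gene when its midpoint lay in the annotated locus extended by 1000 or 3000 bp. The loci and peaks were assumed to share one build. Neither the third ChIP library nor the Input samples were used here.

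Named genes are all 10 relatives, BRC1, the called members of fixed lists (TIE genes and TPL, MIR319 precursors, 12 downstream genes), the tissue markers and the 3 genes most like the most abundant relative. TPL, the TIE genes, LOX2, AS1, IAA3, ARR16, KRP1, the CUC genes, the class I TCP genes, AT1G53233, AT4G18380, AT2G45685 and CLE12 were added after their values were seen. The members and lists were chosen with earlier results of these data known. No sequence is shown, and promoter motifs were not searched. Gene names come from the tables and from a RefSeq gene table of TAIR10.1.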

Additional observations from a re-analysis of the deposited data

How the results depend on the processing

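TCP3 stayed higher and past the threshold in each of the 16 alternatives run, with log2 changes from 0.54 (pseudocount 5) to 0.69 and limma adjusted p-values from 0.00167 to 0.0258. Among these is its sum with AT1G53233, which is no separate check of TCP3. TCP2, TCP4, TCP10, TCP17 and TCP24 kept their direction and did not pass in any fit that included them. Median scaling, quantile normalization and voom on derived fragments each called 2 relatives in place of 1, both higher, by adding TCP5 (log2 changes of 0.33, 0.34 and 0.36; limma adjusted p of 0.0311, 0.0236 and 0.0499). The cause was not tested. TCP13 ranged from -0.1 to 0.16 when one library was left out (0 without brc1-2 library 1, -0.07 without brc1-2 library 2 and -0.1 without induced library 3), TCP3 from 0.59 to 0.69, and TCP5 from 0.26 to 0.36. TCP17 had no value at an FPKM of at least 5.

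The number of genes called ranged from 1609 to 2827 when one library was left out (3413 with all), with 716 to 1354 higher and 893 to 1473 lower; it was 1609, 1738 and 2006 without induced libraries 1, 2 and 3 and 2134 without brc1-2 library 2. Each of these fits has fewer samples. Of the TIE, MIR319 and downstream lists, 4 genes passed in the fit reported, 2 at an FPKM of at least 5 (1 lower, since YUC5 and SAUR65 are then not tested), 1 with the replicate block (0 lower) and 0 to 2 with one library left out (0 to 1 higher, 0 to 2 lower). Class I TCP calls ranged from 1 to 5 with one library left out. Among wide peaks (at or above the median width) 1 relative, TCP3, had a midpoint within 1000 bp, and with loci not extended 0 had.

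With the replicate block TCP3 kept its call (log2 change 0.65, limma adjusted p = 0.0152), and 2989 genes were called in place of 3413. Same-numbered libraries had deviations correlated at 0.0824, 0.0597 and 0.193, all above 0 but not all over 0.1. Induced libraries 2 and 3 correlated most with the brc1-2 library of the same number, and induced library 1 with brc1-2 library 2 (0.145). The numbers were not taken as pairs, though these values do not settle whether they are.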
